A study of Mus musculus with 12 samples.

Results

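Near intergenic peaks were the accessible regions of the master peak-list that HOMER, the annotation program used by the authors, assigned to no gene, yet within 10 kb of a transcription start site (TSS). They were taken as the peaks in the intergenic class in both its basic and its detailed annotation, with a distance of 10000 bp or less between peak centre and nearest TSS. Of the 84243 peaks in the list, 5140 (6.10%) met this rule. Of these, 4421 (86.0%) lay upstream of the nearest TSS and 719 (14.0%) lay downstream. The last peak inside the limit was 10000 bp upstream of Rnf111, and the first peak outside it was 10001 bp upstream of G6pc.

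The list came from ATAC-seq, in which a transposase inserts sequencing adapters into exposed DNA. Untreated wild-type C57BL/6 mice aged 8 to 12 weeks gave all 12 samples, as 2 replicates of each of 6 sorted cell types. HSCs, megakaryocyte progenitors (MkPs), erythroid progenitors (EPs), granulocyte/macrophages (GMs) and B cells were from bone marrow, and T cells were from thymus. The authors pooled the cell types into 1 list of positions, which holds 0 columns of values per sample, so neither depth nor replicate error is known and no comparison between cell types was made. The identity of the sorted cells could not be checked against markers for the same reason.

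Gene regulation in blood cells relies on elements outside promoters. Enhancers bind transcription factors that act on a promoter some distance away, while sites bound by CTCF, a zinc finger protein that organizes chromatin loops, separate or join neighbouring domains. Close to a gene, accessible intergenic DNA can hold either kind of element, and it can also hold an unannotated promoter. GATA factors serve erythroid and megakaryocytic cells, PU.1 and CEBP factors serve myeloid cells, and TCF1 and E2A factors serve lymphoid cells.

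Stretches of 8 peaks are printed first, as examples of short motifs in accessible DNA beside genes. Each is the central 300 bp of a peak on the plus strand of mm10, read from the RefSeq copy of that assembly, with every match to a searched motif in capitals. The first 6 are 1 peak for each of 6 lists of blood genes. Each was the candidate with the most motifs in its central 200 bp, so these stretches need not be typical of their lists. The last 2 were chosen after their values were seen, because they hold a CTCF site.
Gfi1b: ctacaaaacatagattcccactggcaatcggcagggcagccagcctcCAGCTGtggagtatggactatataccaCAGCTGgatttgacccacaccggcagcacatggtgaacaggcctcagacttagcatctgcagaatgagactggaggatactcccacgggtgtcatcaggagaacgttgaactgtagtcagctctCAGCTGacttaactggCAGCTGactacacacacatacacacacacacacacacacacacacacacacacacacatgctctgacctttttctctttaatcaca
Hbb-y: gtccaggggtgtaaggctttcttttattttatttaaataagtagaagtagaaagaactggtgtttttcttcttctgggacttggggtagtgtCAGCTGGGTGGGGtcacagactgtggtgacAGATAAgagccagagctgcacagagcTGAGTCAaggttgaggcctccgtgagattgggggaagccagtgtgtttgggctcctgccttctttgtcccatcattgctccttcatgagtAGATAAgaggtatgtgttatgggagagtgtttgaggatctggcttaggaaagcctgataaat
Gp9: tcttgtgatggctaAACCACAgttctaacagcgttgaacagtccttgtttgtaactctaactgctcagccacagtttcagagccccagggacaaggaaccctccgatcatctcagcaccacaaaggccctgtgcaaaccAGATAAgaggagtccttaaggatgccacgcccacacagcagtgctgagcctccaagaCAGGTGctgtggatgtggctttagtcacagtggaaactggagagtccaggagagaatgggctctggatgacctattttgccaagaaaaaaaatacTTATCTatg
Cebpe: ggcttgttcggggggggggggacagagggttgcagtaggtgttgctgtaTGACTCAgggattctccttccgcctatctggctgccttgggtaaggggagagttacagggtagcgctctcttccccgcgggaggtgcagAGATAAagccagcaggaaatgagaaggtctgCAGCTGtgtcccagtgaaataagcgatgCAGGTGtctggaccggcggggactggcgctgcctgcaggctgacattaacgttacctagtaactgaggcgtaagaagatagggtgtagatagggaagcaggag
Igll1: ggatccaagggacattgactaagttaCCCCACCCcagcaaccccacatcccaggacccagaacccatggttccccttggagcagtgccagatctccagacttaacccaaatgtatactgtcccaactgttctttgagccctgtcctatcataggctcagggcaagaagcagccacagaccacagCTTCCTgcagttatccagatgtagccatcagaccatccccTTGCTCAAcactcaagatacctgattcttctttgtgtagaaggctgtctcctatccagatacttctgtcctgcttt
Il7r: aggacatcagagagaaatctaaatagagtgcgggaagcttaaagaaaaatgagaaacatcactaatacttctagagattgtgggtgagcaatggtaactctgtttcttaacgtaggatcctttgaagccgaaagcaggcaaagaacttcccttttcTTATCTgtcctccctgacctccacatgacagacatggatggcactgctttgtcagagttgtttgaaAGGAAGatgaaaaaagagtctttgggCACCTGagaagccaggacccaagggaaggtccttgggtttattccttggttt
Mirlet7b: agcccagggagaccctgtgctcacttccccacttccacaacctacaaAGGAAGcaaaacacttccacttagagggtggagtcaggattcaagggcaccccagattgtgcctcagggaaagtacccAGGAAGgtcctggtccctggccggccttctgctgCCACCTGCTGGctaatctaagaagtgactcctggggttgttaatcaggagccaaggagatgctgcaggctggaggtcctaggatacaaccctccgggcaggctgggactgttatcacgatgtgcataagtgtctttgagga
Myc: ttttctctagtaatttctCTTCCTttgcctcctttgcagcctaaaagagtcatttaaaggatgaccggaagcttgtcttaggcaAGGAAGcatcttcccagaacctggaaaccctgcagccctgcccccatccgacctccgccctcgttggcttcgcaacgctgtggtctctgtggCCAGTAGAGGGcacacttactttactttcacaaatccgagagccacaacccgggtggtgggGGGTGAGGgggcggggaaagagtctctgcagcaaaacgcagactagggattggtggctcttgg
The Gfi1b stretch (chr2:28629910-28630209) lay 8078 bp upstream of the gene for a repressor used in stem, erythroid and megakaryocytic cells. It held 4 copies of the E2A string CAGCTG and no match to the other motifs. The Hbb-y stretch (chr7:103859140-103859439) lay 6083 bp upstream of the embryonic beta-type globin gene, on the side of the globin locus control region. It held 2 copies of the GATA string AGATAA and 1 AP-1 site, the kind of site that the erythroid factor NF-E2 also binds, beside 1 E2A and 1 KLF site. The Gp9 stretch (chr6:87775924-87776223) lay 2062 bp upstream of the gene for platelet glycoprotein IX and held 2 GATA sites, 1 RUNX site and 1 ZEB site. The Cebpe stretch (chr14:54714744-54715043) was 2720 bp upstream of the gene for a factor of late granulocyte development, and it held 1 GATA, 1 AP-1, 1 E2A and 1 ZEB site.

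The Igll1 stretch (chr16:16865259-16865558) lay 1424 bp upstream of the gene for a surrogate light chain of the pre-B cell receptor, with 1 ETS, 1 CEBP and 1 KLF site. The Il7r stretch (chr15:9533554-9533853) lay 3828 bp upstream of the gene for the interleukin 7 receptor alpha chain, with 1 GATA, 1 ETS and 1 ZEB site. The Mirlet7b stretch (chr15:85709357-85709656) lay 2188 bp downstream of a let-7 microRNA hairpin. Its CTCF match overlapped its ZEB match, since the letters of the ZEB string can fall inside a CTCF site. The Myc stretch (chr15:61983255-61983554) lay 1936 bp upstream of the gene for the growth regulator c-Myc and also held a CTCF site. A match describes the letters of the DNA and does not show that the factor was bound.

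Upstream peaks thinned out with distance in number but much less in density. There were 687 upstream peaks at 1 to 2 kb from the TSS and 389 at 9 to 10 kb. Downstream peaks ran the other way, from 9 at 1 to 2 kb to 129 at 9 to 10 kb. This difference follows largely from the rule, since HOMER keeps separate classes for the promoter, up to 1 kb upstream of a TSS, and for the region up to 1 kb past a transcript end. A peak just downstream of a TSS can therefore be intergenic only past the end of a short gene. The closest upstream member was 1005 bp from the TSS of Tshz2, and the closest downstream member 1454 bp from that of Gm15517.

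To take the available space into account, peaks were counted per Mb of intergenic sequence outside soft-masked repeats, with distance and side taken from curated RefSeq transcripts. Every peak of the list whose centre fell on this sequence was counted, whatever its HOMER class, also on CpG islands. The set is therefore larger than the 4421 upstream and 719 downstream peaks of the rule. Upstream, 5235 peaks fell on 85.1 Mb within 10 kb of a TSS, or 61.5 per Mb. Downstream, 873 peaks fell on 17.1 Mb, or 51.0 per Mb. The upstream density was 1.21 times the downstream density (95% interval 1.12 to 1.30, from the counts alone). Farther out, at 10 to 100 kb, the densities were 42.7 per Mb upstream (41.9 to 43.6) and 43.7 per Mb downstream (42.7 to 44.8), so that both near windows exceeded the level farther out.

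The lowest densities lay just past the ends of short genes. At 1 to 4 kb downstream of a TSS, 126 peaks on 3.48 Mb gave 36.2 per Mb (30.2 to 43.1). From 4 to 10 kb downstream the density was 54.8 per Mb (50.9 to 58.9), an interval that does not overlap the nearer one. The upstream windows were at 59.8 per Mb (57.3 to 62.5) from 1 to 4 kb and 62.7 per Mb (60.5 to 64.9) from 4 to 10 kb. Within the upstream side, the bin at 1 to 2 kb stood at 66.2 per Mb, the bin at 3 to 4 kb was lowest at 54.7, and the bin at 5 to 6 kb reached 66.7.

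**Figure D1:**
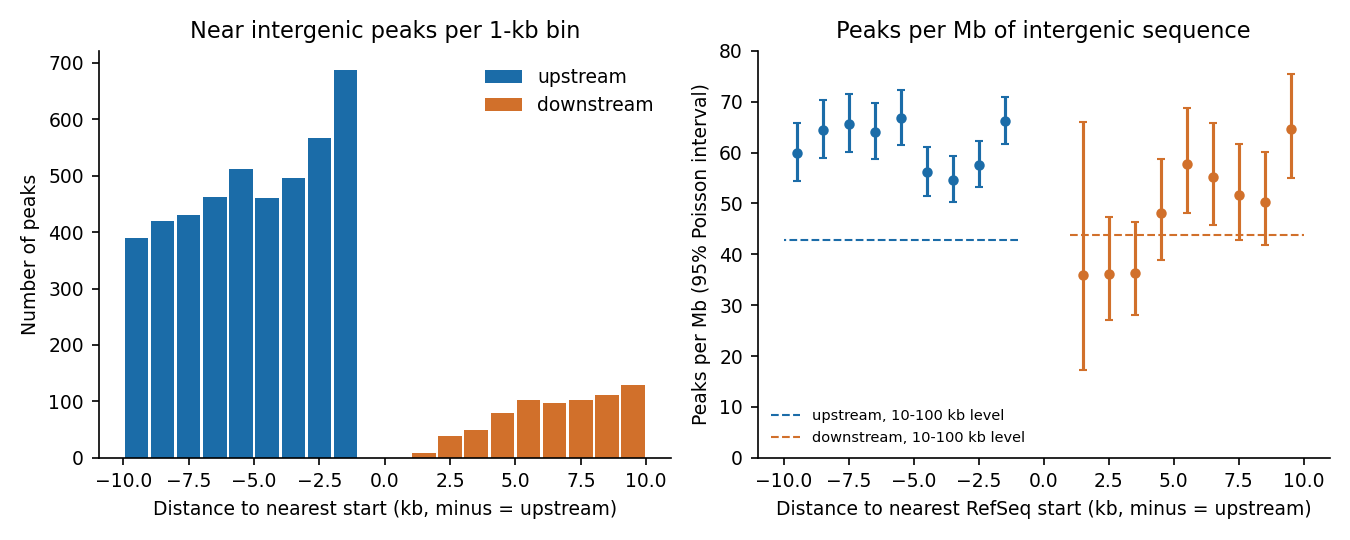
Near intergenic peaks per 1-kb bin of distance to the nearest start (left, counts of peaks) and peaks of any HOMER class per Mb of non-repeat intergenic sequence by distance to the nearest RefSeq start (right, a larger set of peaks, with 95% Poisson intervals; dashed lines give the level at 10 to 100 kb on each side). Upstream bins range from 54.7 to 66.7 per Mb, while the downstream bins from 1 to 4 kb are close to 36 per Mb.

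The distance past the gene end is bounded by the rule, which removes the first 1 kb past the end and everything beyond 10 kb from the TSS. For the 713 downstream peaks whose transcript end was found in RefSeq, the centre lay a median of 3191 bp past that end (quartiles 2074 and 5287 bp). The nearest gene had a median length of 2738 bp for downstream peaks and 21417 bp for upstream peaks, a contrast that the 10-kb limit enforces. By type, peaks past protein-coding genes lay a median of 3014 bp beyond the end, those past long non-coding RNAs 3146 bp, and those past microRNA hairpins 5228 bp.

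The kind of gene beside the peak differed between the sides. The nearest gene was protein-coding for 89.1% of upstream peaks and 66.9% of downstream peaks, a difference of 22.2 percentage points (95% Newcombe interval 18.7 to 25.8). With a limit of 5 kb the difference was 34.2 points (26.9 to 41.6). For intergenic peaks at 10 to 100 kb the share was 80.6%, with 84.8% upstream and 73.4% downstream, and for all peaks it was 85.6%. Long non-coding RNAs were nearest to 8.84% of upstream and 17.9% of downstream peaks. At 10 to 100 kb these shares were 12.5% and 20.5%, and over all peaks the share was 10.25%. MicroRNA hairpins were nearest to 1.4% of upstream and 12.2% of downstream peaks, which is 88 of 719. At 10 to 100 kb these shares were 1.79% and 4.40%, and over all peaks the share was 3.09%. For each kind of gene, the order of the sides was thus the same beyond 10 kb. Short genes are the ones that can have a downstream peak within the limit, and microRNA hairpins are among the shortest genes annotated.

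Downstream peaks less often stood beside a gene with a peak at its own annotated start. Over all peaks of the list, which include the promoter peaks themselves, the share with such a gene was 71.4%. A promoter peak, centred within 500 bp of the TSS, was present in the list for the nearest gene of 68.2% of upstream peaks (95% Wilson interval 66.8 to 69.6%) and 45.2% of downstream peaks (41.6 to 48.9%), 23.0 percentage points apart (19.1 to 26.9). Where the nearest gene was protein-coding, the shares were 72.9% and 53.2%, a difference of 19.6 points (15 to 24.3). Beyond 10 kb, the share was 67.8% upstream and 57.1% downstream, so the upstream share hardly moved with distance (0.39 points, interval -1.29 to 2.06), while the near downstream share was 11.9 points lower than the far one (-15.7 to -7.99). Beside microRNAs, 22 of 62 upstream peaks (35.5%) and 10 of 88 downstream peaks (11.4%) had such a promoter peak. Beside long non-coding RNAs the order of the sides was the opposite, with 118 of 391 upstream peaks (30.2%, 25.8 to 34.9%) and 59 of 129 downstream peaks (45.7%, 37.4 to 54.3%). Promoter peaks were matched by gene symbol, so a start shared by several symbols may be credited to only some of them. The rule limits near downstream peaks to short genes, and the sides were not compared at equal gene length.

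With promoter peaks counted as neighbours, near intergenic peaks were more crowded than those farther away. Another peak lay within 2 kb of 33.5% of upstream and 30.3% of downstream peaks, and of 24.6% of the intergenic peaks at 10 to 100 kb. The near peaks were 8.46 percentage points above the far ones (7.0 to 9.93). Near peaks lie close to a TSS by the rule, so a promoter peak can be the neighbour. Near and far peaks were not compared without promoter peaks. The sides differed by 3.16 points, with an interval (-0.56 to 6.69) that includes 0. When promoter peaks were left out as neighbours, the order of the sides turned, with a difference, upstream minus downstream, of -4.90 points (-8.58 to -1.4). The median distance to the next peak, promoter peaks included, was 3227 bp upstream, 3957 bp downstream and 5209 bp at 10 to 100 kb.

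The direction of the flanking genes is largely fixed by the side itself, since an upstream peak has a start on one flank and a downstream peak an end, so each side was set against the same side farther out. Upstream peaks lay between 2 starts, with the genes on either side pointing away from each other, in 43.0% of cases (1903 of 4421), against 40.2% of upstream peaks at 10 to 100 kb (difference 2.84 points, 1.07 to 4.61). In 55.3% the flanking genes pointed the same way. The gap between the flanking genes had a median of 34034 bp for the upstream peaks between 2 starts. Downstream peaks lay between 2 gene ends in 50.2% of cases, against 53.6% farther out (difference -3.40 points, -7.27 to 0.48), and between genes of the same direction in 49.7%.

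Intergenic was not always intergenic by RefSeq. The peak centre lay inside a curated RefSeq transcript for 2.90% of the 5140 peaks (2.47 to 3.39%). Once predicted transcripts were added, 1117 centres (21.7%) lay inside one, more often upstream (23.1%) than downstream (13.5%), by 9.58 percentage points (6.63 to 12.2). At 10 to 100 kb the share was 21.6%. All 5 upstream peaks of Gse1 lay inside a longer RefSeq transcript of Gse1 itself, and so did the 4 of Nr4a1, whereas the 5 of Coa7 lay in no transcript. Such overlaps are not stated for every named peak.

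**Figure D2:**
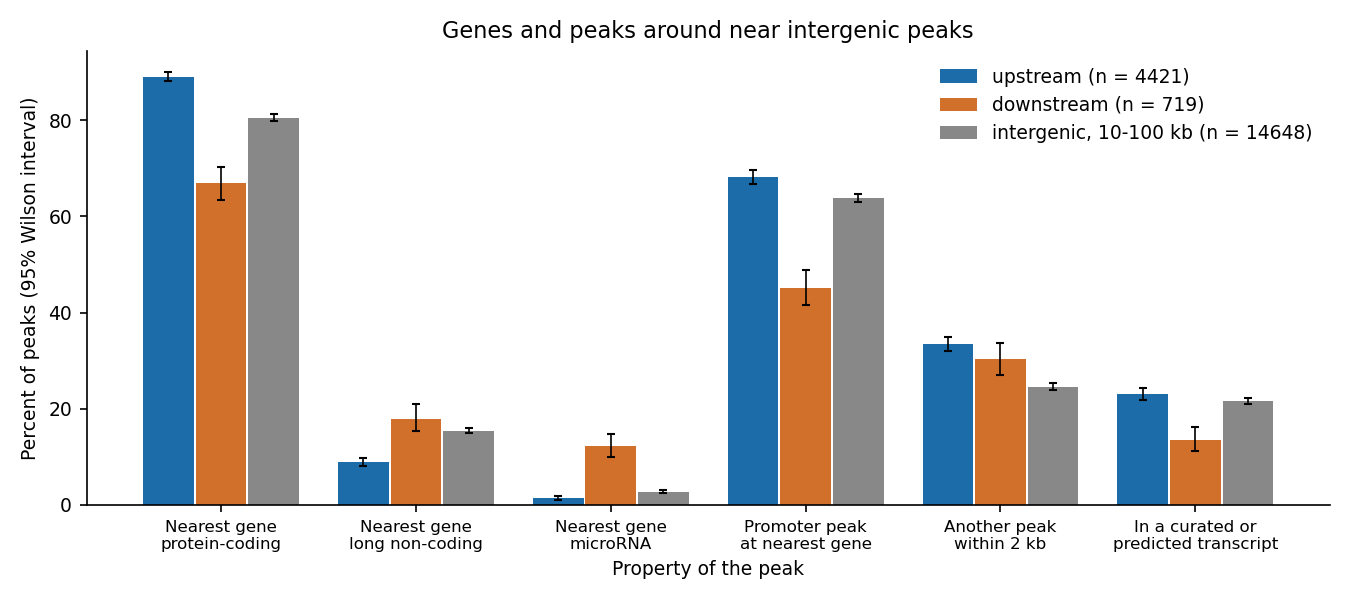
Percent of upstream, downstream and more distant (10 to 100 kb) intergenic peaks with each property on the horizontal axis, with 95% Wilson intervals. Downstream peaks stand lower for protein-coding nearest genes (66.9% against 89.1%) and promoter peaks (45.2% against 68.2%), and higher for microRNAs (12.2% against 1.4%).

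In base composition the sides were close to each other and unlike promoters. The median G and C content was 48.3% upstream, 49.1% downstream, 47.9% in intergenic peaks at 10 to 100 kb and 63.3% in promoter peaks. The observed to expected CpG ratio had a median of 0.224 upstream and 0.231 downstream, against 0.778 in promoter peaks. Peaks on annotated CpG islands and repeats had been set aside by the rule. They numbered 1813 of the 6953 peaks within 10 kb that were intergenic by the basic annotation, and 264 of them lay on CpG islands.

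Motifs were searched on both strands of the whole peak as short strings, with N for any base. A GATA site was AGATAA, an ETS site AGGAAG and a PU.1 site GAGGAAGT. A RUNX site was read as AACCACA, a CEBP site as TTGCNCAA and an AP-1 site as TGANTCA. The E-box of E2A was CAGCTG, and that of ZEB was CAGGTG. The IRF string was GAAANNGAA, the TCF string CTTTGAT and the KLF string CCNCACCC. CTCF was searched by the core of its consensus. Each PU.1 match contains an ETS match. For GATA, ETS, PU.1, RUNX and CEBP sites, the interval of the difference between the sides included 0. GATA sites were found in 25.8% of upstream and 24.5% of downstream peaks, against 8.65% of promoter peaks and 24.1% of all peaks. ETS sites were found in 64.7% and 63.6%, PU.1 sites in 9.79% and 8.90%, RUNX sites in 16.4% and 17.8%, and CEBP sites in 6.22% and 5.98%. Over all peaks the shares were 62.4% for ETS, 9.39% for PU.1, 16.1% for RUNX and 5.34% for CEBP. In the central 200 bp alone, the ETS difference was 4.06 percentage points (0.16 to 7.87).

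For 2 of the 12 motifs, the interval of the difference between the sides left out 0. CTCF sites were in 15.7% of downstream peaks (113 of 719, 13.2 to 18.6%) and in 12.1% of upstream peaks (536 of 4421, 11.2 to 13.1%), a difference of -3.59 percentage points, upstream minus downstream (-6.58 to -0.92). TCF sites were in 9.46% of downstream and 6.83% of upstream peaks (-2.63 points, -5.09 to -0.55), but in the central 200 bp alone the TCF interval included 0 (-0.79 points, -2.48 to 0.47). For CTCF, both sides were above the 7.68% of all peaks and the 1.99% of promoter peaks, and above the same side at 10 to 100 kb, by 1.79 points upstream (0.67 to 2.96) and 2.89 points downstream (0.25 to 5.86). At 10 to 100 kb, CTCF sites were in 12.8% of downstream and 10.3% of upstream peaks, so this order of the sides was not particular to near peaks. TCF sites there were in 7.65% of downstream and 8.04% of upstream peaks, and in 6.76% of all peaks. No correction was made for the 12 motifs examined. Without the peaks inside curated or predicted transcripts, neither interval left out 0, at -2.83 points (-6.08 to 0.050) for CTCF and -2.11 points (-4.76 to 0.11) for TCF.

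The shares were also taken by distance, without a test between the distances, whose intervals overlap. At 1 to 4 kb, CTCF sites were in 22 of 98 downstream peaks (22.4%, 15.3 to 31.7%) and in 12.8% of upstream peaks, a difference of -9.64 points (-19.0 to -2.32). At 4 to 7 kb the shares were 16.2% and 13.2%, and at 7 to 10 kb they were 13.4% and 9.94%, with both intervals including 0. TCF sites were in 6.12% of downstream and 7.26% of upstream peaks at 1 to 4 kb, and 36 of 343 against 75 of 1238 at 7 to 10 kb (-4.44 points, -8.32 to -1.26). Against the intergenic peaks at 10 to 100 kb, the near peaks, both sides pooled, held fewer AP-1 sites (16.5% against 18.2%, -1.64 points, -2.82 to -0.43) and IRF sites (16.7% against 18.2%, -1.55 points, -2.73 to -0.34). They held more KLF sites (21.7% against 20.1%, 1.59 points, 0.31 to 2.91) and CTCF sites (12.6% against 11.3%, 1.37 points, 0.35 to 2.43). Over all peaks the shares were 15.3% for AP-1, 16.3% for IRF and 21.4% for KLF, so the near IRF and KLF shares were close to those of the whole list. Within each side, the AP-1 interval included 0 on both (-2.65 to 0.04 upstream, -4.72 to 1.13 downstream), and the IRF and KLF intervals included 0 downstream (-3.17 to 2.73 and -0.18 to 6.41). Upstream alone, near peaks also held fewer RUNX sites (-1.57 points, -2.90 to -0.21) and TCF sites (-1.20 points, -2.11 to -0.26) than far ones. Downstream, the RUNX and TCF intervals included 0 (-2.26 to 3.68 and -0.26 to 4.26).

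**Figure D3:**
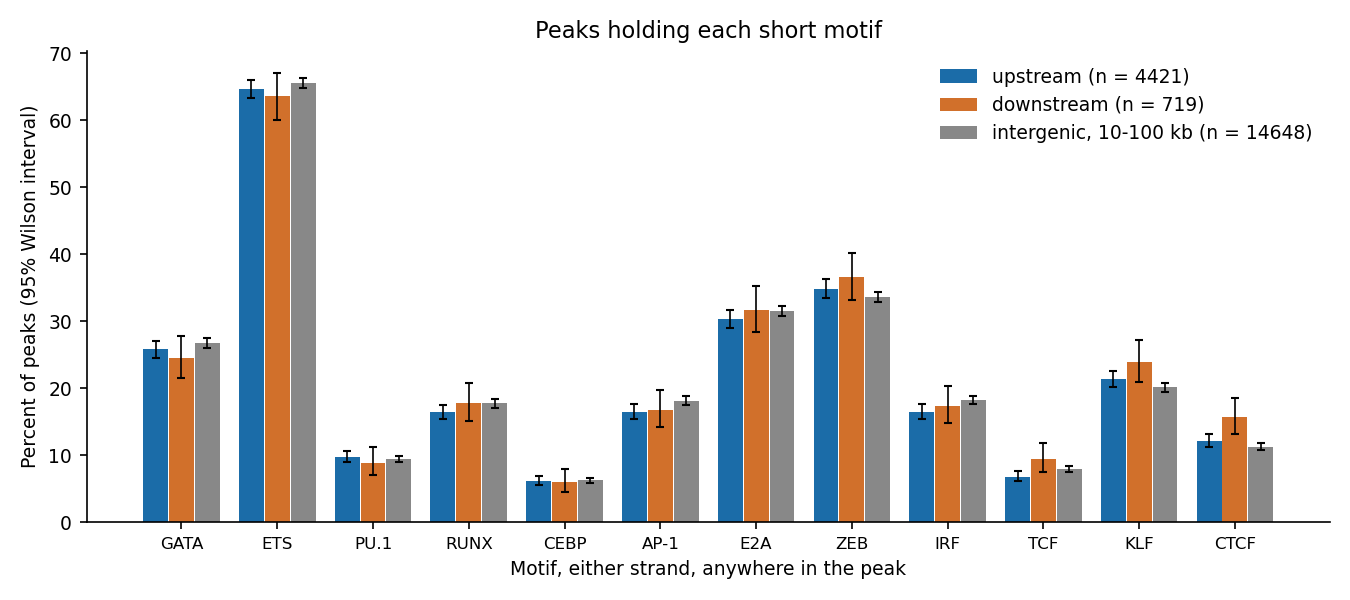
Percent of upstream, downstream and more distant (10 to 100 kb) intergenic peaks that hold at least 1 match to each of 12 motifs, with 95% Wilson intervals. Shares run from about 6% for CEBP to about 65% for ETS, and the sides stand apart beyond counting error for CTCF (15.7% downstream, 12.1% upstream) and TCF (9.46% and 6.83%), of which TCF does not in the central 200 bp alone. The more distant peaks are drawn with their sides pooled, and their CTCF shares are 12.8% downstream and 10.3% upstream.

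The position of the site inside the peak set the motifs apart more clearly than their shares did. Among peaks with exactly 1 CTCF site (640 of 649), the median offset of the site from the middle of the peak was 19 bp, and 84.7% of these sites were within 50 bp of it. Sites spread evenly over the 499 bp would lie a median of 122 bp away. PU.1 sites came next, at a median of 43.5 bp with 54.8% within 50 bp (473 peaks). RUNX sites were at 78 bp and ETS sites at 84 bp. GATA sites were at 110.5 bp, and TCF and IRF sites, at 125 and 127 bp, were no nearer to the centre than an even spread. The CTCF sites were central on both sides, with medians of 17 bp upstream and 22.5 bp downstream. The TCF sites that differed in share between the sides were not, at 125 bp upstream and 128 bp downstream. The strings differ in length, and how often each would match unrelated DNA was not measured. The order of the motifs by share or by offset therefore does not rank the factors.

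**Figure D4:**
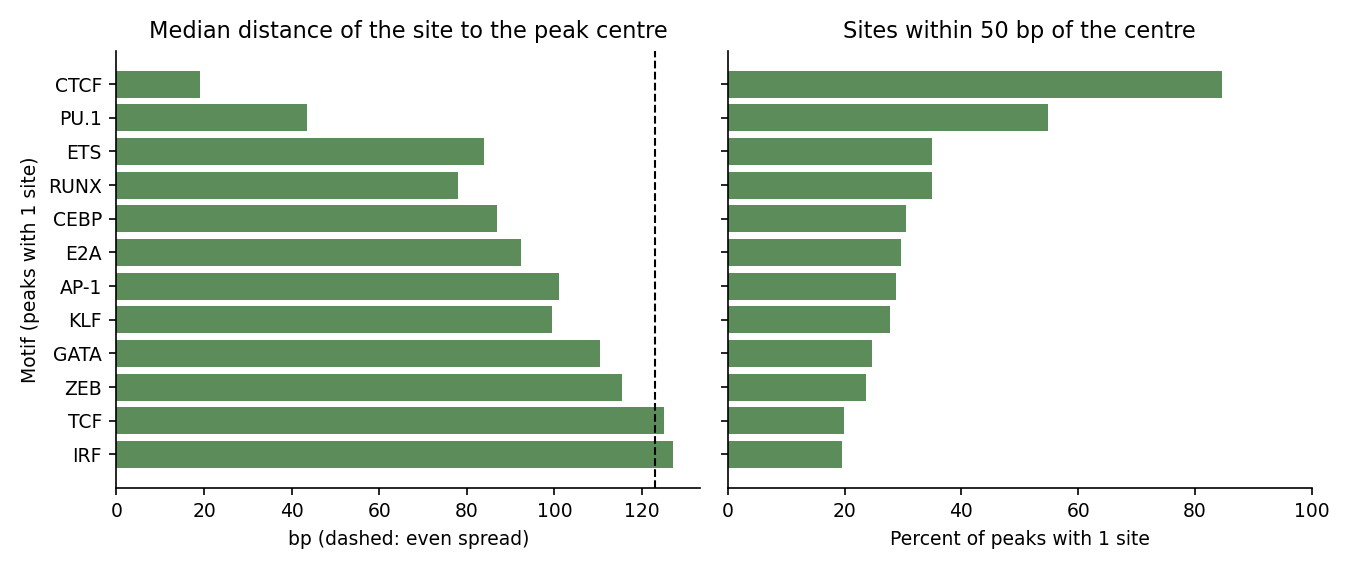
Median distance in bp between a motif site and the peak centre (left) and percent of sites within 50 bp of the centre (right), over near intergenic peaks with exactly 1 site of that motif. CTCF (19 bp, 84.7%) and PU.1 (43.5 bp, 54.8%) sites are the most central, and TCF and IRF sites lie at the distance given by an even spread (dashed line).

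The peaks were spread over many genes. In all, 4004 genes were nearest to at least 1 of them, 3538 upstream and 590 downstream, with 124 on both sides. Most had a single peak, namely 2828 genes upstream and 483 downstream. The highest number upstream was 5, shared by 4 genes. These were Coa7, which encodes a mitochondrial respiratory chain assembly factor, Gse1, the long intergenic RNA Lincred1 and the non-coding gene Gm8013. The 5 peaks of Coa7 lay from 4375 to 9960 bp upstream, with the closest neighbours 610 bp apart, in a gap between 2 gene starts. The next gene by symbol, 1700001K23Rik, had 4 upstream peaks.

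The highest number downstream was 4, again shared by 4 genes, of which 3 were microRNAs. Gadd45b, a stress response gene, had peaks 3756, 5396, 7838 and 9772 bp downstream of its TSS, with the first 1643 bp past the transcript end, and its own promoter was in the list. The other gene of the 5 named, the non-coding 1110006O24Rik, had 3. Mir21a, the gene for a microRNA abundant in many tissues, had peaks at 2744, 3517, 5046 and 6776 bp. Mir3069 had peaks at 3285, 4703, 5688 and 8776 bp. Mirlet7b, which encodes a member of the let-7 family that restrains growth genes, had peaks at 2188, 3085, 5654 and 8916 bp. None of the 3 hairpins had a promoter peak at its annotated start. The start of a hairpin is not the start of the primary transcript it is cut from, so these distances are to the hairpin.

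The mature products of the 3 hairpins are printed because the microRNA names stand for these molecules. They are from RefSeq on GRCm38, which held both arms of each, with the seed, bases 2 to 8, in capitals.
mmu-miR-21a-3p: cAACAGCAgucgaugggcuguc
mmu-miR-21a-5p: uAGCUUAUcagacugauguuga
mmu-miR-3069-3p: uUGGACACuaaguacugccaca
mmu-miR-3069-5p: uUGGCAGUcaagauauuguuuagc
mmu-let-7b-5p: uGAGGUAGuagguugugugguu
mmu-let-7b-3p: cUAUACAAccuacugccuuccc
The 6 products had 6 different seeds, so the hairpins with the most downstream peaks shared none.

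Among genes with peaks on both sides, the most peaks were at the non-coding genes 8430423G03Rik (3 upstream, 2 downstream) and Gm2848 (2 and 3). They were followed by 3300005D01Rik (1 and 3), AI847159 (2 and 2) and the protein-coding Ankrd9 (3 and 1). These last were taken in order of symbol from genes tied at 4, which include the protein-coding Btg2 and Mcl1. The 2 downstream peaks of 8430423G03Rik lay inside the transcript of another RefSeq gene, Gm15411, and 1 of them held a CTCF site.

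Lists of blood genes were then read against all genes named in the peak-list. Of the 19040 genes named as nearest to any peak, 18.6% had at least 1 upstream and 3.1% at least 1 downstream near intergenic peak. Genes of 9 kb or less, which number 5718, had downstream peaks in 9.69% and upstream peaks in 16.3%. Such short genes were 3 of 24 T cell genes, 16 of 25 granulocyte and macrophage genes and 19 of 20 neural genes. The downstream counts of lists rich in short genes are therefore to be read beside the 9.69%. Listed genes were chosen with earlier results of these data known, so the counts are descriptions.

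In the list of stem cell transcription factors, 4 of 18 genes had an upstream and 1 a downstream peak, close to the shares over all genes. Tal1, a master regulator of blood formation, had peaks 3758 and 8365 bp upstream, both inside a RefSeq transcript of Gm52674. Gfi1b, Fli1 and the stem cell factor Meis1 had 1 each, at 8078, 7800 and 8244 bp upstream. Hhex had the only downstream peak of the list, 9101 bp from the TSS. Among erythroid genes, 7 of 25 had upstream and 2 downstream peaks. The adult beta-globin gene Hbb-bt had 3 downstream peaks at 2483, 4787 and 6825 bp, and Hbb-b2 had 1 at 1371 bp upstream. These 2 symbols have the same annotated start, so 1 place with peaks on both sides counts as 2 genes here. The erythroid factor Nfe2 had 1 peak at 1889 bp upstream. Single upstream peaks lay beside Gata1 (3533 bp) and Alas2 (7171 bp), which encodes the first enzyme of heme synthesis, and both lay inside RefSeq transcripts. The peak beside Hba-a1 held 22 matches to the ETS string and 1 to the IRF string. Whether these ETS matches form a simple repeat was not tested.

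Megakaryocyte and platelet genes had upstream peaks in 6 of 22 and downstream peaks in 3. Zfpm1, which encodes the GATA1 cofactor FOG1, had 4 upstream peaks at 4707, 5629, 6954 and 8770 bp. All but the farthest lay inside a RefSeq transcript of Gm39269. Gp9 had peaks 2062 and 7300 bp upstream. The platelet chemokine genes Ppbp and Pf4, which are neighbours, had 1 each, at 2463 bp upstream of Ppbp and 3305 bp downstream of Pf4. The Pf4 peak held 2 GATA, 1 RUNX and 1 PU.1 site.

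Granulocyte and macrophage genes had upstream peaks in 10 of 25 and downstream peaks in 5. The genes for the CEBP factors of myeloid development held 8 of the 20 peaks of the list. Cebpb had 3 upstream peaks at 2449, 3582 and 8746 bp, Cebpa had 2 downstream peaks at 5673 and 8016 bp, and Cebpe had 1 upstream peak at 2720 bp and 2 downstream peaks at 5398 and 6182 bp. The Cebpa peak at 8016 bp and the Cebpb peak at 2449 bp each held a CEBP site, and the other 6 of these 8 peaks held none. Csf2ra, encoding a chain of the GM-CSF receptor, had peaks 4026 and 9731 bp upstream. The peak beside Spi1, the PU.1 gene, lay 7483 bp upstream, held a PU.1 site and lay inside a longer RefSeq transcript of Spi1.

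B cell genes had upstream peaks in 12 of 23, and downstream peaks in 4. Blnk, an adaptor of B cell receptor signalling, had 3 upstream peaks at 1567, 4534 and 5196 bp. The kinase gene Blk had 2, at 1411 and 2418 bp, and Irf4 had 2, at 1538 and 6464 bp. Igll1 had 1 peak on each side, 1424 bp upstream and 8977 bp downstream, and the downstream peak held a CTCF site. T cell genes had upstream peaks in 10 of 24 and a downstream peak in 1, Zap70. Il7r had peaks 3828 and 5512 bp upstream, and the chemokine receptor gene Ccr4 had peaks 1887 and 4761 bp upstream. Both Ccr4 peaks lay inside a RefSeq transcript of Ccr4 itself. The peak 1058 bp upstream of Gata3, a factor of T cell development, and that 1590 bp upstream of the surface receptor gene Cd6 were close to the promoter. The Gata3 peak lay inside a RefSeq transcript of Gata3.

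Short inducible genes, such as immediate early genes and feedback regulators of signalling, had the most peaks of the 8 lists. Of 34 genes, 27 had at least 1, with 23 on the upstream side (67.6%), 11 on the downstream side (32.4%) and 7 on both. As 30 of the 34 were 9 kb or shorter, the downstream share is to be read beside the 9.69% of short genes. Nr4a1, an orphan nuclear receptor gene, had 4 upstream peaks at 4189, 5618, 8187 and 9855 bp. Btg2, which restrains proliferation, had upstream peaks at 3594, 4278 and 7891 bp and a downstream peak at 5819 bp. Mcl1, a survival gene of the BCL2 family, had upstream peaks at 4898, 6327 and 7910 bp and a downstream peak at 7582 bp. Zfp36, whose protein shortens the life of cytokine mRNAs, had 3 upstream peaks at 1950, 2888 and 3883 bp. Genes for neural factors, listed as a control, had upstream peaks in 4 of 20 and a downstream peak in 1.

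**Figure D5:**
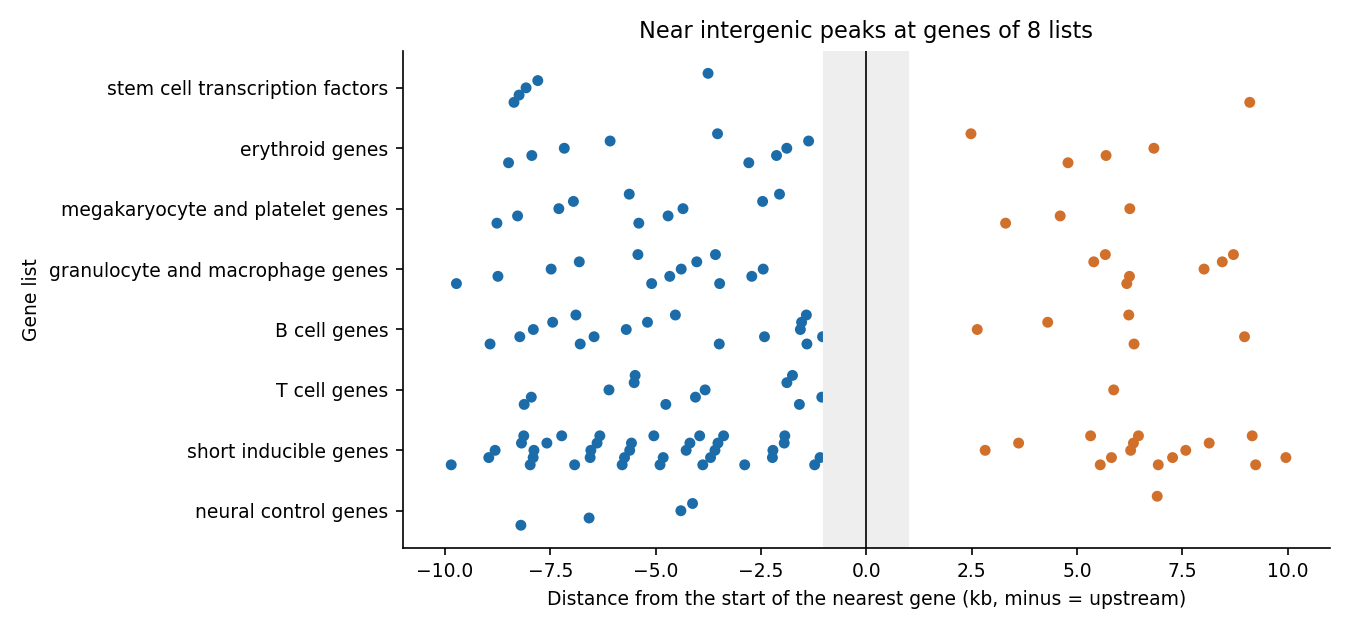
Each point is a near intergenic peak whose nearest gene is in 1 of 8 gene lists, placed by its signed distance from the start of that gene in kb (blue upstream, orange downstream, shaded within 1 kb of the start; vertical scatter within a row only separates points). Short inducible genes (34 listed, 30 of 9 kb or less) have the most points, 37 upstream and 15 downstream. Stem cell transcription factors (18 listed, 4 of 9 kb or less) have 5 and 1. The lists differ in size and gene length, so points are not comparable between rows.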

How the data were processed

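ATAC-seq was run on 12 samples. The authors took reads through the ENCODE pipeline with mm10 as genome, joined the optimal Irreproducible Discovery Rate lists of all cell types, removed overlapping peaks in chromVAR and ran HOMER 4.10.2 on the resulting master peak-list. Start, end and distance to TSS were used as the authors deposited them, in bp. The deposited peak score was 0 in every peak (0 nonzero scores), so it ranked nothing. Depth is unknown, and 0 columns of per-sample values were left unused.

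Each peak was 499 bp wide. Sequence, curated and predicted transcripts were from RefSeq on GRCm38.p6, which is mm10. HOMER and curated RefSeq distances were equal to within 2 bp in 4573 of the 5140 peaks, and 4997 lay on the same side. Shares have 95% Wilson intervals and differences 95% Newcombe intervals, all for counting error only. Neighbouring peaks are not independent, and no p-value was computed. Named genes were the 5 with the most peaks upstream, downstream and among genes with both, ties by symbol, and up to 4 with the most peaks in each of 8 lists, ties by distance. Not every gene so named is reported here. Printed stretches came from these genes, other than Myc. For each blood list, the peak nearest the TSS of each named gene was considered, and the one with the most motifs in its central 200 bp was printed, ties by distance. Other genes of the lists were named after their values were seen. The members, the lists and the tests were chosen with earlier results of these data known. The motif search and the density count were tested on simulated data. Python 3.11.15, pandas 2.3.3, scipy 1.17.1, statsmodels 0.14.6 and matplotlib 3.10.9 were used.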

Additional observations from a re-analysis of the deposited data

How the results depend on the processing

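Of 96 values recomputed under alternatives, 86 kept their side of 0, or stayed within 1.5 times the reported count or within its interval, where a difference whose interval included 0 was free to change sign. With a limit of 5 kb there were 2209 upstream and 177 downstream peaks, and with 15 kb there were 1325 downstream peaks. Counting predicted as well as curated transcripts raised the share of centres inside a transcript from 2.90% to 21.7%. Without promoter peaks as neighbours, the difference between the sides in close neighbours was -4.90 points, where it had been 3.16 points with an interval including 0, and for peaks at 5 to 10 kb it was -2.9 points (-7.28 to 1.25). Among peaks in no curated or predicted transcript, 0 of 12 motifs kept an interval without 0, and with that alternative, chosen after seeing the data, as with the peaks at 5 to 10 kb only, the CTCF and TCF differences remained negative. In the central 200 bp the TCF difference was -0.79 points (-2.48 to 0.47), and the ETS difference was 4.06 points (0.16 to 7.87). The promoter peak difference ran from 19.6 to 22.6 points and the density ratio from 1.15 to 1.39 over their alternatives. The cause of these shifts was not tested.

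No paired analysis was possible because the list holds no values per sample. For the same reason leaving out a replicate was not run, and no stricter score was applied since every score is 0. Read depth limits which weak elements are listed, and it is unknown.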

Other observations

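Some near intergenic peaks sat at the start of a transcript that HOMER did not use. A curated or predicted RefSeq start lay within 500 bp of the centre of 306 of the 5140 peaks (5.95%), against 4.1% of intergenic peaks at 10 to 100 kb, a difference of 1.86 percentage points (1.16 to 2.60). The share was 6.18% upstream and 4.59% downstream, with an interval of the difference that includes 0 (-0.32 to 3.09).

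Genes for neural factors, the control list, also had near intergenic peaks. Neurog2 had 1 on each side, 4126 bp upstream and 6904 bp downstream. Nkx2-1 and Pou4f1 had 1 upstream peak each, at 4403 and 6582 bp. The Nkx2-1 peak held a CTCF site, and its nearest other peak was 96133 bp away.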
